A study of Mus musculus with 16 samples.

Results

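The opioid system of the medial prefrontal cortex (mPFC) was described here by 7 genes, chosen by name: the 4 receptor genes Oprm1, Oprd1, Oprk1 and Oprl1, and the 3 peptide precursor genes Penk, Pdyn and Pnoc. Each of them matched 1 of the 26625 genes in the table. Gene expression was counted by long-read sequencing of cDNA from 16 male C57BL/6 mice, 8 to 10 weeks of age, of which 7 carried a control virus (Ctrl) and 9 a virus against Kdm7a (Kdm7a-shRNA), a histone lysine demethylase gene. Both viruses were adeno-associated and were injected into the mPFC, and the Kdm7a-shRNA virus expressed its hairpin from a U6 promoter and EGFP from a CMV promoter, neither of which is restricted to a cell type. The saline groups held 3 mice (Ctrl + Saline) and 5 mice (Kdm7a-shRNA + Saline), and the morphine groups, Ctrl + Morphine and Kdm7a-shRNA + Morphine, held 4 mice each. All mice went through 10 days of place conditioning, with morphine at 10 mg/kg on alternate days or with saline throughout, and the tissue was taken on day 7 of withdrawal. The mice of the 4 groups were therefore all virus-injected, trained and tested animals, and no uninjected mouse was part of the comparison.

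Opioid receptors are receptors coupled to inhibitory G proteins: they open G protein-gated potassium channels, close presynaptic calcium channels and lower cyclic AMP. The mu receptor (Oprm1) is the main target of morphine, the delta receptor (Oprd1) prefers enkephalins, the kappa receptor (Oprk1) prefers dynorphins, and the nociceptin receptor (Oprl1) is related in sequence but binds nociceptin. Their peptides are cut out of larger precursors at pairs of basic residues, Penk giving enkephalins, Pdyn giving dynorphins and neoendorphins, and Pnoc giving nociceptin. In the cortex, opioid peptides are made largely by interneurons and mu receptors act largely on interneurons.

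The peptides of the 3 precursors begin with a core of 4 residues, which is the same in Penk and Pdyn and differs in its first residue in Pnoc. The coding sequences of the GENCODE vM21 transcripts (GRCm38) held 7 copies of the enkephalin core in Penk, 3 in Pdyn and 1 core of the nociceptin type, in which phenylalanine replaces the first tyrosine, in Pnoc. All 11 cores directly followed a pair of codons for basic residues, and 6 of the 7 Penk stretches, all 3 Pdyn stretches and the Pnoc stretch also ended at such a pair. The remaining Penk stretch ended at the stop codon. Of the Penk stretches, 4 were Met-enkephalin, 1 was Leu-enkephalin and 2 were longer. All 3 Pdyn stretches began with Leu-enkephalin, and each is shown up to the first basic pair, although the dynorphins and neoendorphins themselves extend beyond it. The following stretches are the ones by which the 3 precursor genes can be compared. They are written 5′ to 3′ on the coding strand, which is the minus strand in all 3 genes, with the 4 core codons in capitals.
Penk Met-enkephalin, first copy, chr4:4134334-4134348: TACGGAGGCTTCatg
Penk octapeptide, chr4:4134064-4134087: TATGGGGGCTTCatgagaagcctc
Penk Leu-enkephalin, chr4:4133941-4133955: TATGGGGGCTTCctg
Penk heptapeptide, chr4:4133842-4133862: TACGGGGGCTTTatgcggttc
Pdyn first copy, chr2:129688238-129688252: TATGGCGGCTTTttg
Pdyn second copy, chr2:129688130-129688144: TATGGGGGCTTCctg
Pdyn last copy, chr2:129688073-129688087: TATGGTGGTTTCctg
Pnoc nociceptin, chr14:65404842-65404892: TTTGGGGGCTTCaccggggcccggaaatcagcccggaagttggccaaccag
The Leu-enkephalin stretch of Penk and the second stretch of Pdyn were the same 15 bases, and the 7 Penk cores were written in 5 different ways. Each stretch lay within a single exon. The reads were counted per gene over whole transcripts, so the values below are those of the precursor mRNA and say nothing of which peptide was released.

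**Figure D1:**
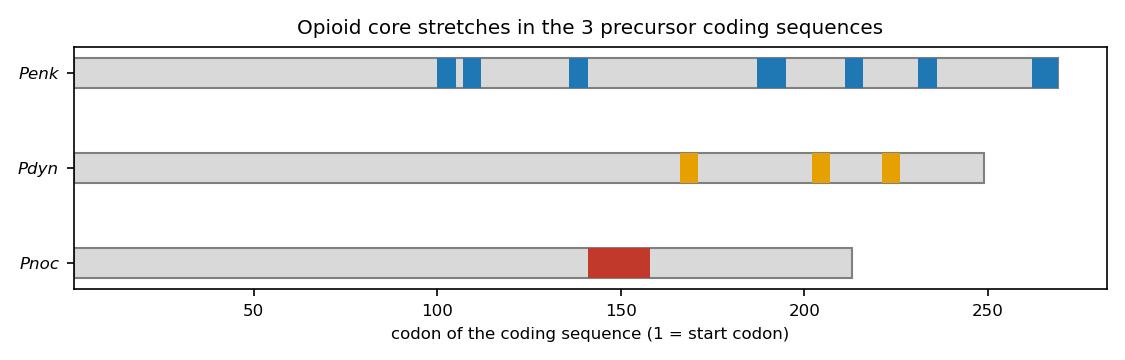
Position of the opioid core stretches along the coding sequences of Penk, Pdyn and Pnoc, with the codon number on the x axis, the coding sequence as a grey bar and each stretch as a coloured block. The 7 Penk stretches lie between codons 100 and 268, the 3 Pdyn stretches between codons 166 and 225 and the Pnoc stretch at codons 141 to 157.

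All 7 genes were measured in this tissue, but at very different depths. Between 6596991 and 12418112 reads were counted per mouse, and a count of 3 reads, taken as the detection floor, corresponded to 0.258 to 0.460 CPM (counts relative to the TMM-scaled library size, written normalized CPM). Summed over the 16 mice, Oprl1 had 4464 reads, Penk 4017, Pdyn 1693, Pnoc 595, Oprm1 260, Oprk1 147 and Oprd1 101. Oprd1 and Oprm1 were each at or under the floor in 3 mice and Oprk1 in 1, and the other 4 genes were above it in every mouse. These floors cover counting error only, since PCR copies were not marked by molecular identifiers.

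Per kilobase of the longest protein-coding transcript, Penk was highest, followed by Oprl1, Pdyn, Pnoc, Oprm1, Oprk1 and Oprd1. Penk stood at 19.7 ± 9.58 normalized CPM per kilobase (SD, n = 16), Oprl1 at 10.6 ± 2.84, Pdyn at 5.10 ± 0.996 and Pnoc at 1.96 ± 0.449. The classical receptors were lower, with Oprm1 at 0.757 ± 0.650, Oprk1 at 0.225 ± 0.103 and Oprd1 at 0.174 ± 0.0960. The nociceptin receptor was therefore the receptor gene with the highest level, and its neighbours in the order were separated from it in nearly all mice. Penk exceeded Oprl1 in 15 of 16 mice, Oprl1 exceeded Pdyn in 16 and Pdyn exceeded Pnoc in 16. The lower part of the order was less distinct: Pnoc exceeded Oprm1 in 14 mice, Oprm1 exceeded Oprk1 in 12, and Oprk1 exceeded Oprd1 in 9, so that the last pair did not differ beyond its spread. Without division by length, which may not be needed where 1 read stands for 1 transcript, Oprl1 (mean 31.9 normalized CPM) and Penk (28.5) changed places.

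**Figure D2:**
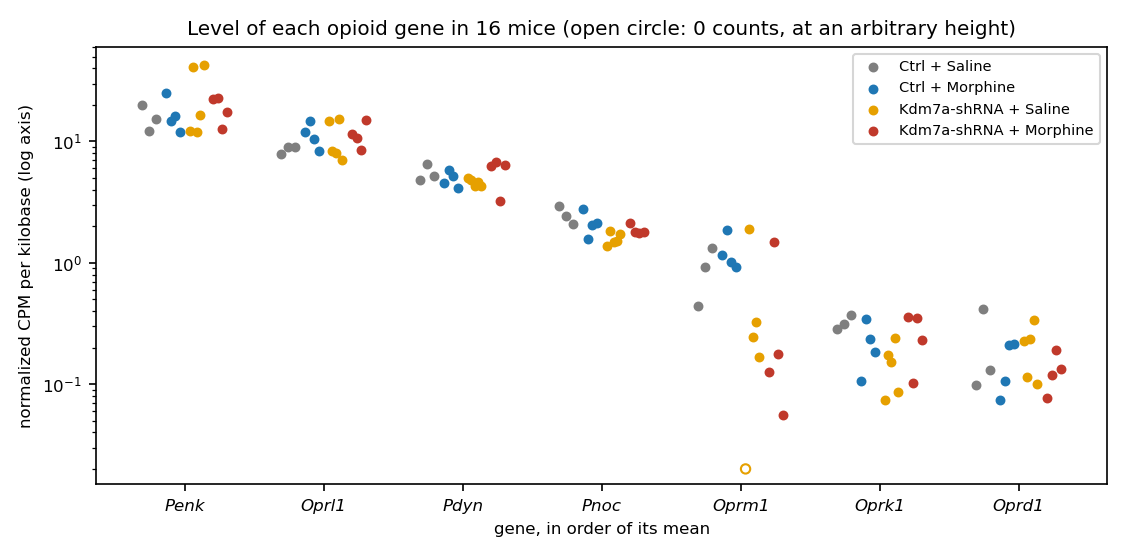
Normalized CPM per kilobase of the longest protein-coding transcript (log axis) for each of the 7 genes, with 1 point per mouse coloured by group and an open circle at an arbitrary height for the mouse without an Oprm1 read. On this axis Oprm1 spans the widest range, from 0 to 1.90, and 7 of the 9 Kdm7a-shRNA mice lie below every Ctrl mouse.

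Differences between the groups were tested with edgeR's quasi-likelihood test in 1 fit of all 16 mice over 18826 genes, and to pass, a gene had to change at least 1.5-fold with a p-value below 0.05 after Benjamini-Hochberg adjustment. Of the opioid genes 6 entered this test, since Oprd1 failed the filter on low counts. Only Pnoc passed, in the comparison of Kdm7a-shRNA + Saline with Ctrl + Saline, in which 1 of 6 opioid genes was called beside 16.7% of all genes tested. In the other comparisons none of the 6 passed. The share of all genes tested that did pass was 7.69% for knockdown under morphine and 17.6% for the knockdown averaged over both treatments. It was 0.00531% for morphine under Kdm7a-shRNA, 0.085% for the interaction, and 0% both for morphine under Ctrl and for morphine averaged over both viruses. DESeq2's Wald test also called 0 of 6 in each of those comparisons. At an unadjusted p-value under 0.05 edgeR gave 0 of 6 opioid genes for morphine under Ctrl (11.7% of all genes), under Kdm7a-shRNA (7.02%) and averaged (8.36%), and 0 for knockdown under morphine (25.5%). It gave 2 for knockdown under saline (Pnoc and Oprk1, 34.7% of all genes), 1 for the averaged knockdown (Pnoc, 38.8%) and 1 for the interaction (Oprk1, 10.7%). The shares of all genes include loci assembled by the authors: of the 18826 genes tested, 14162 were known genes. With known genes only, 1419 genes passed for knockdown under saline, 446 for knockdown under morphine and 1456 for the averaged knockdown.

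The targeted gene, Kdm7a, was lower in the knockdown mice: it ranged from 9.08 to 9.78 normalized CPM in Ctrl + Saline and from 4.93 to 6.07 in Kdm7a-shRNA + Saline (log2 fold change -0.76, SE 0.204, edgeR adjusted p = 0.0153). Under morphine Kdm7a ranged from 6.19 to 8.89 in Ctrl and from 3.01 to 6.28 in Kdm7a-shRNA (-0.67, SE 0.206, edgeR adjusted p = 0.0506). TMM factors were 1.02 to 1.07 in Ctrl and 0.913 to 0.991 in Kdm7a-shRNA mice, and scaling by library size alone moved the median knockdown difference over all genes by -0.13 (log2) under saline and by -0.11 under morphine. Marker genes of other cells moved with the virus as well: the summed level of 10 microglial markers was 557.5 to 1261 normalized CPM in Ctrl and 1172 to 5315 in Kdm7a-shRNA mice. All 10 were fitted higher in both comparisons, and 9 passed under saline and 6 under morphine. The defining microglial markers Aif1, Cx3cr1 and P2ry12 rose under saline by 1.13, 1.03 and 0.89 on the log2 scale, and no defining marker was at 0. Of 8 endothelial markers 6 were fitted higher and 2 lower in both comparisons. Those that passed, 3 under saline and 1 under morphine, were higher. Of all genes, 16.7% passed under saline and 7.69% under morphine. Markers of excitatory projection neurons were present in every group: Slc17a7 had group means of 312.9 to 467.9 normalized CPM and Camk2a of 486.6 (Kdm7a-shRNA + Saline) to 803.6 (Ctrl + Saline). None of 20 such markers passed under saline or under morphine, and 17 and 18 of them were fitted lower in knockdown mice, with a median log2 fold change of -0.15 and -0.37. In bulk tissue, fewer cells of a type and less RNA per cell cannot be told apart.

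**Figure D3:**
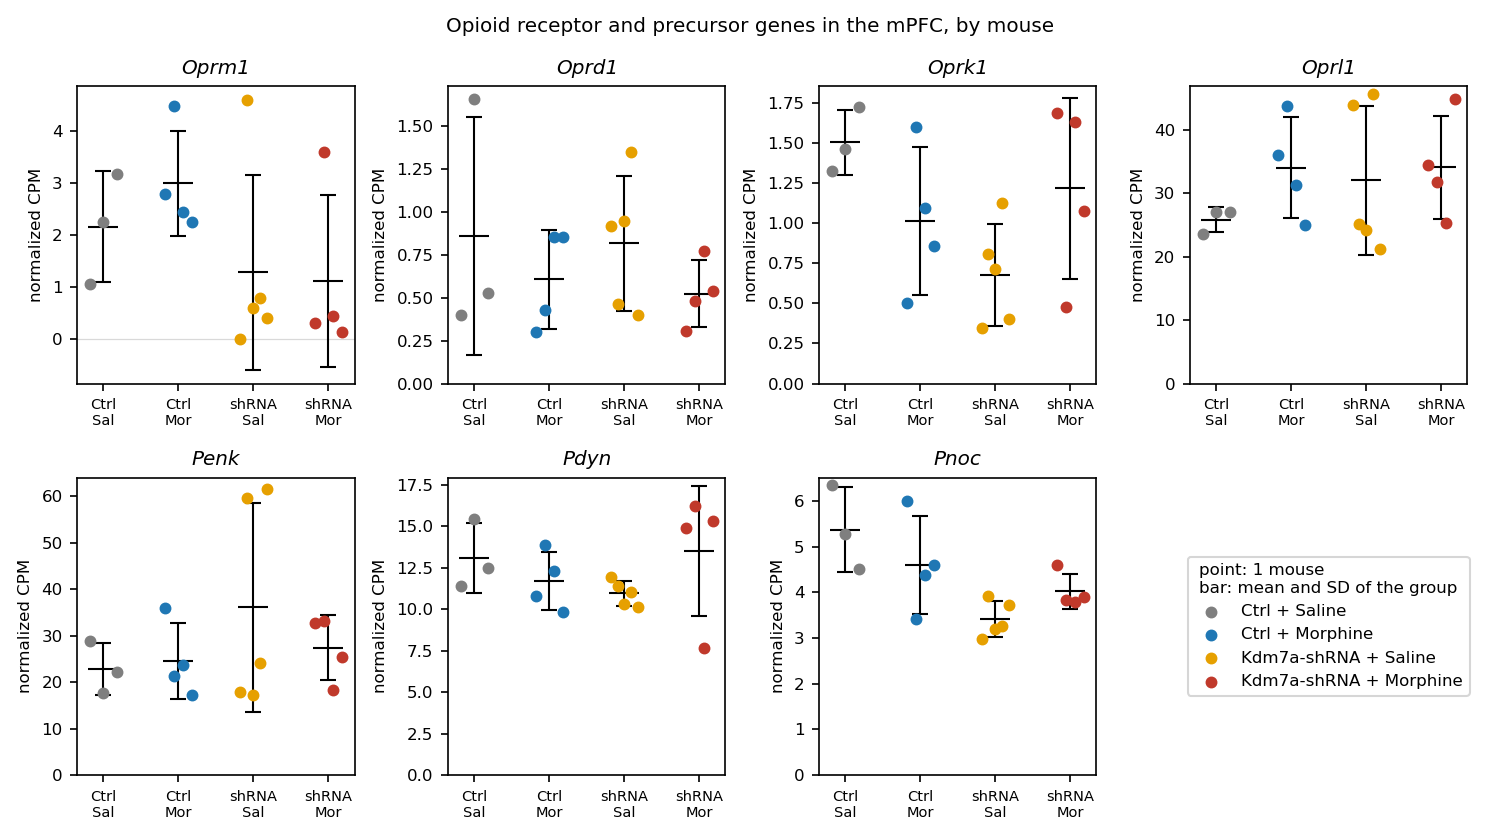
Normalized CPM of the 7 opioid genes by group, with 1 point per mouse and bars for the group mean and SD (3, 4, 5 and 4 mice). Pnoc and Oprk1 are the genes in which all Kdm7a-shRNA + Saline mice lie below all Ctrl + Saline mice, as in 12.7% of all genes tested. Replicate 2 of both Kdm7a-shRNA groups stands above the rest of its group for Oprm1.

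Oprm1 (chr10:6758506-7038198, plus strand) was read at 0 to 42 counts per mouse. The Ctrl + Saline mice had 1.06, 2.24 and 3.18 normalized CPM, and the Ctrl + Morphine mice had 2.80, 4.48, 2.44 and 2.25. In Kdm7a-shRNA + Saline the values were 0, 4.61, 0.593, 0.787 and 0.402, and in Kdm7a-shRNA + Morphine they were 0.307, 3.597, 0.430 and 0.134. Thus 7 of the 9 Kdm7a-shRNA mice lay below the lowest of the 7 Ctrl mice, 1 lay within the Ctrl range and 1 lay above the highest Ctrl mouse, so the groups overlapped. The mouse without an Oprm1 read had a floor of 0.345 normalized CPM.

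The Oprm1 means were 2.16 ± 1.06 in Ctrl + Saline (SD, n = 3), 2.99 ± 1.02 in Ctrl + Morphine (n = 4), 1.28 ± 1.88 in Kdm7a-shRNA + Saline (n = 5) and 1.12 ± 1.66 in Kdm7a-shRNA + Morphine (n = 4). The knockdown difference did not pass under saline (log2 fold change -0.77, 95% interval -2.59 to 1.06, edgeR adjusted p = 0.567), under morphine (-1.40, -3.18 to 0.38, edgeR adjusted p = 0.322) or averaged over both (-1.08, -2.36 to 0.19, edgeR adjusted p = 0.200). Single mice decided the averaged difference: Oprm1 passed at -1.82 (edgeR adjusted p = 0.0199) without replicate 2 of Kdm7a-shRNA + Saline, and at -1.996 (edgeR adjusted p = 0.0235) without replicate 2 of Kdm7a-shRNA + Morphine. Oprm1 varied between mice of a group more than most genes of its abundance: its chi-square per degree of freedom was 14.8, against a median of 2.10 over 1611 known genes with counts within 1.5-fold of it, of which 99.5% were lower. For morphine, the Oprm1 log2 fold change was 0.47 under Ctrl (95% interval -1.33 to 2.26) and -0.17 under Kdm7a-shRNA (-2.001 to 1.667), intervals that include changes of several fold in both directions. The 2 high mice also had the highest summed level of 18 genes of striatal projection neurons in their groups (326.6 and 270.5 normalized CPM), whereas replicate 5 of Kdm7a-shRNA + Saline had a sum of 311.7 and an Oprm1 level of 0.402. Over the 16 mice Oprm1 and this sum had a Pearson's r of 0.50 and a Spearman's rho of 0.42, as a description, and the part of the striatal genes in the Oprm1 level was not tested. The Oprm1 gene lies across the antisense gene Ipcef1 over 152403 bases, but the exons of the genes share only 96 of the 8037 exonic bases of Oprm1.

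Oprd1 (chr4:132110726-132144486, minus strand) was the least abundant of the genes and could not be tested with the others. Its counts were 3, 17 and 4 in Ctrl + Saline, 3, 4, 7 and 8 in Ctrl + Morphine, 8, 4, 8, 12 and 4 in Kdm7a-shRNA + Saline, and 2, 4, 9 and 4 in Kdm7a-shRNA + Morphine. All 4 groups overlapped, and the mouse with 17 reads was in Ctrl + Saline. The group means lay between 0.524 ± 0.193 (Kdm7a-shRNA + Morphine, n = 4) and 0.862 ± 0.694 normalized CPM (Ctrl + Saline, n = 3). With the filter removed, its log2 fold changes were -0.15 for knockdown under saline (95% interval -1.23 to 0.93) and -0.59 for morphine under Ctrl (-1.75 to 0.58), and its edgeR adjusted p-values were 0.744 to 1.00 over the 7 comparisons and 26588 genes. Both intervals of Oprd1 were more than 2 log2 units wide, so a change of moderate size was not detectable at this depth.

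Oprk1 (chr1:5588466-5606131, plus strand) was lower in every Kdm7a-shRNA + Saline mouse than in every Ctrl + Saline mouse. It was at 1.32, 1.46 and 1.72 normalized CPM in Ctrl + Saline and at 0.345, 0.807, 0.711, 1.13 and 0.402 in Kdm7a-shRNA + Saline. The morphine groups lay across both: Ctrl + Morphine had 0.499, 1.60, 1.10 and 0.856, and Kdm7a-shRNA + Morphine had 1.69, 0.480, 1.63 and 1.07. These values rest on 3 to 19 reads per mouse, and counting error alone gives a coefficient of variation of 33.0% at the mean count, against 39.7% measured within groups.

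The saline groups of Oprk1 did not overlap, which held in the same direction for 12.7% of all genes tested. The fitted log2 fold change was -1.14 (SE 0.453, 95% interval -2.09 to -0.19), with an unadjusted p of 0.0219 and an adjusted p of 0.0833 by edgeR, so Oprk1 did not pass. It passed at -1.40 (edgeR adjusted p = 0.0414) when replicate 4 of Kdm7a-shRNA + Saline, the highest of its group, was left out. Under morphine the knockdown log2 fold change was 0.27 (95% interval -0.64 to 1.19, edgeR adjusted p = 0.740). The difference between the knockdown effects, the interaction, was 1.41 (SE 0.628, 95% interval 0.09 to 2.73, unadjusted p = 0.0374, edgeR adjusted p = 0.421). For morphine under Kdm7a-shRNA the value was 0.84 (95% interval -0.06 to 1.75, edgeR adjusted p = 0.742), and under Ctrl it was -0.57 (-1.53 to 0.39, edgeR adjusted p = 0.673).

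Oprl1 (chr2:181715016-181720985, plus strand), the receptor of nociceptin, had 178 to 411 reads per mouse, and its groups overlapped in every comparison. In Ctrl + Saline it was at 23.5, 27.0 and 27.0 normalized CPM and in Ctrl + Morphine at 36.0, 43.9, 31.3 and 25.0. In Kdm7a-shRNA + Saline it was at 43.9, 25.2, 24.3, 45.7 and 21.2, and in Kdm7a-shRNA + Morphine at 34.5, 31.8, 25.4 and 44.8. The Ctrl + Saline mice were close together, whereas replicates 1 and 4 of Kdm7a-shRNA + Saline stood well above the other 3 mice of their group.

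The Oprl1 log2 fold change was 0.40 for morphine under Ctrl (SE 0.265, 95% interval -0.16 to 0.95, edgeR adjusted p = 0.597) and 0.31 for knockdown under saline (SE 0.255, -0.23 to 0.84, edgeR adjusted p = 0.415). For knockdown under morphine it was -0.002 (95% interval -0.51 to 0.51), which bounds the ratio of the groups between 0.702 and 1.42. For the receptors of lower abundance the same interval was wider, from 0.110 to 1.30 for Oprm1 and from 0.643 to 2.28 for Oprk1.

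Penk (chr4:4133531-4138819, minus strand), the enkephalin precursor, did not pass in any comparison, and 2 mice stood far above all others. It was at 28.8, 17.7 and 22.1 normalized CPM in Ctrl + Saline and at 36.0, 21.2, 23.6 and 17.2 in Ctrl + Morphine. In Kdm7a-shRNA + Saline it was at 17.8, 59.6, 17.2, 24.1 and 61.6, and in Kdm7a-shRNA + Morphine at 32.6, 33.1, 18.4 and 25.4. Replicates 2 and 5 of Kdm7a-shRNA + Saline were thus the highest of all 16 mice, while the other 3 mice of that group lay within the range of Ctrl + Saline or just below it. Penk also varied more within groups than genes of like abundance, with a chi-square per degree of freedom of 54.7 against a median of 5.97 over 2408 known genes, of which 98.7% were lower.

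The same Kdm7a-shRNA + Saline mice, replicates 2 and 5, had the highest summed level of 18 genes of striatal projection neurons, at 326.6 and 311.7 normalized CPM, against 156.1 to 296.4 in the other 14. Ppp1r1b and Gng7 were the largest parts of this sum. Their highest group means were in Ctrl mice, at 102.5 (Ctrl + Morphine) and 106.4 (Ctrl + Saline). In the striatum, Penk marks the projection neurons that carry Drd2 and Adora2a. Adora2a was at 12.4 and 10.7 normalized CPM in these 2 mice and at 1.07 to 7.43 in the others, and Lrrc10b was at 13.8 and 13.5 against 0.804 to 9.68. Drd2 was at 2.995 and 2.613 in them, but also at 2.76 in replicate 1 of Kdm7a-shRNA + Morphine. Drd1 was at 7.60 and 11.5, within the range of the other mice (4.04 to 11.6). None of these 3 defining markers, Drd1, Drd2 and Adora2a, was at 0 in any mouse, and of the 14 striatal genes tested 0 passed in any comparison. Across the 16 mice Penk and the summed striatal genes had a Pearson's r of 0.69 and a Spearman's rho of 0.62, as a description of points that share libraries and scaling. The association was not particular to striatal genes. With the sum of 10 oligodendrocyte markers r was 0.61 and rho 0.50, and with that of 20 excitatory neuron markers r was -0.49 and rho -0.33. The 2 mice had oligodendrocyte sums of 18590 and 17670 normalized CPM. The part of these cell types in the Penk level was not tested.

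The Penk log2 fold change was 0.66 for knockdown under saline (SE 0.397, 95% interval -0.172 to 1.497, edgeR adjusted p = 0.251) and -0.21 (edgeR adjusted p = 0.673) without the 2 mice. For morphine under Kdm7a-shRNA it was -0.40 (SE 0.358, edgeR adjusted p = 0.839) with them and 0.47 (edgeR adjusted p = 1.00) without, so the direction of both differences rested on them. Under Ctrl, which does not hold these mice, the morphine difference was 0.11 (95% interval -0.76 to 0.97, edgeR adjusted p = 0.944), and for knockdown under morphine it was 0.15 (-0.64 to 0.95, edgeR adjusted p = 0.843). Penk overlaps the antisense transcript A830012C17Rik over 499 bases, of which 233 are exonic in both, out of 1634 exonic bases of Penk, and whether the counting used strand is not given in the sources used here.

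**Figure D4:**
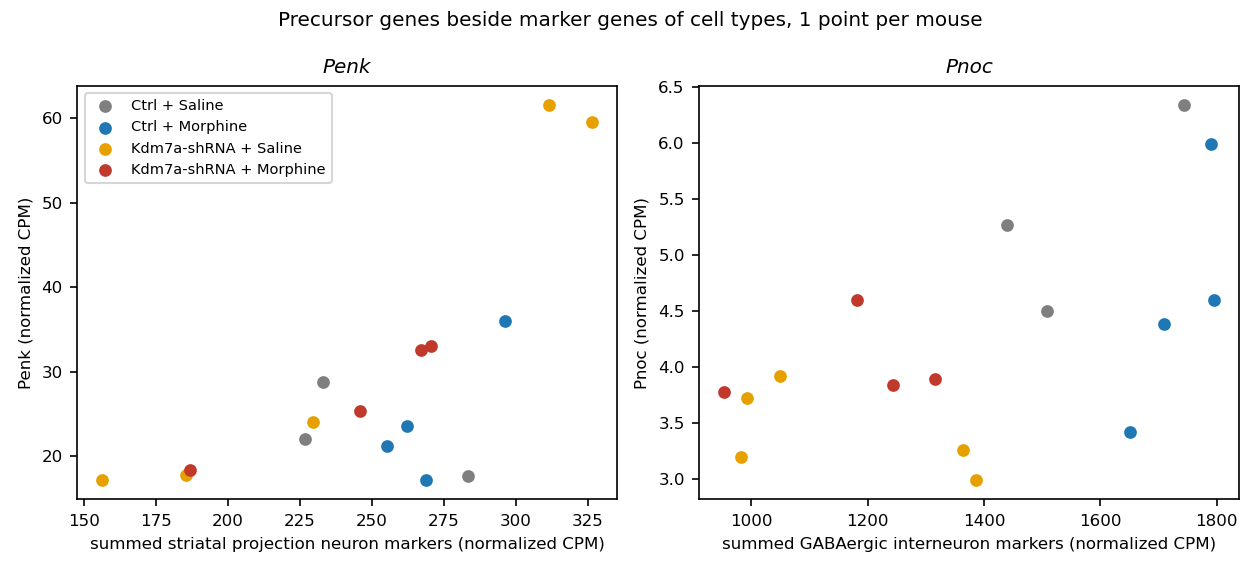
Penk against the summed level of 18 striatal projection neuron genes (left) and Pnoc against the summed level of 31 GABAergic interneuron genes (right), both in normalized CPM, with 1 point per mouse coloured by group. The 2 mice at about 60 normalized CPM of Penk, at 59.6 and 61.6, are those with the highest striatal sums. The Ctrl and Kdm7a-shRNA mice separate on the interneuron axis (1440 to 1796 against 952.7 to 1386). Under saline the lower interneuron sum rests largely on Npy and Sst.

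Pdyn (chr2:129686565-129699844, minus strand), the dynorphin precursor, had 86 to 158 reads per mouse and passed in no comparison. It was at 11.4, 15.4 and 12.5 normalized CPM in Ctrl + Saline, at 10.8, 13.9, 12.3 and 9.84 in Ctrl + Morphine, at 11.95, 11.41, 10.3, 11.0 and 10.2 in Kdm7a-shRNA + Saline, and at 14.9, 16.2, 7.65 and 15.3 in Kdm7a-shRNA + Morphine. The groups overlapped in every comparison. In Kdm7a-shRNA + Morphine 3 mice were at the upper end of all values and replicate 3 had the lowest value of all 16 mice.

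The log2 fold change of Pdyn for morphine was -0.17 under Ctrl (SE 0.213, 95% interval -0.61 to 0.28, edgeR adjusted p = 0.802) and 0.29 under Kdm7a-shRNA (SE 0.189, -0.11 to 0.69, edgeR adjusted p = 0.778). For knockdown it was -0.26 under saline (-0.69 to 0.17, edgeR adjusted p = 0.394) and 0.20 under morphine (-0.22 to 0.61, edgeR adjusted p = 0.580). As ratios, the knockdown intervals of Pdyn ran from 0.621 to 1.13 under saline and from 0.858 to 1.53 under morphine. The interaction of Pdyn was 0.46 (95% interval -0.14 to 1.05, edgeR adjusted p = 0.612).

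Pnoc (chr14:65400673-65425472, minus strand), the nociceptin precursor, fell in the knockdown mice under saline. It was at 6.34, 5.27 and 4.50 normalized CPM in Ctrl + Saline and at 2.99, 3.917, 3.199, 3.262 and 3.72 in Kdm7a-shRNA + Saline. The groups did not overlap, all 5 knockdown mice being below all 3 controls, which held in the same direction for 12.7% of all genes tested. The means were 5.37 ± 0.924 (SD, n = 3) and 3.42 ± 0.386 (n = 5), and the log2 fold change was -0.65 (SE 0.204, 95% interval -1.08 to -0.22, edgeR adjusted p = 0.0321), a level 0.638-fold that of Ctrl + Saline. Among all genes tested 9.31% passed in this direction. The call was close to the threshold: Pnoc no longer passed without replicate 1 of Ctrl + Saline (-0.56, edgeR adjusted p = 0.102), replicate 2 of Ctrl + Saline (-0.66, 0.0817), replicate 1 of Kdm7a-shRNA + Saline (-0.61, 0.0610) or replicate 3 of Kdm7a-shRNA + Saline (-0.63, 0.0636), nor without both mice with high striatal genes (-0.77, 0.0562).

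Under morphine the groups of Pnoc overlapped. Ctrl + Morphine had 5.99, 3.42, 4.38 and 4.60 normalized CPM and Kdm7a-shRNA + Morphine had 4.60, 3.84, 3.78 and 3.89. The log2 fold change was -0.20 (SE 0.199, 95% interval -0.62 to 0.22, edgeR adjusted p = 0.576), and the averaged knockdown difference was -0.42 (SE 0.143, -0.72 to -0.12, edgeR adjusted p = 0.0340), under the fold threshold. That the knockdown difference was larger under saline than under morphine was not shown, since the interaction was 0.45 (95% interval -0.15 to 1.05, edgeR adjusted p = 0.619). For morphine the values were -0.22 under Ctrl (95% interval -0.66 to 0.22, edgeR adjusted p = 0.725) and 0.23 under Kdm7a-shRNA (-0.18 to 0.64, edgeR adjusted p = 0.830). Within groups Pnoc varied no more than counting error, with a chi-square per degree of freedom of 0.989.

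Markers of GABAergic interneurons, the cells in which cortical Pnoc is mostly made, moved with the virus too. The summed level of 31 such genes was 1440 to 1796 normalized CPM in Ctrl and 952.7 to 1386 in Kdm7a-shRNA mice. Abundant neuropeptide genes weigh heavily in this sum. Its mean was 1564 in Ctrl + Saline and 1154 in Kdm7a-shRNA + Saline. Between the same groups the mean of Npy fell from 422.7 to 120.7 and that of Sst from 238.6 to 108.3. The mean of Cck rose from 239.2 to 401.5. Under saline the lower sum thus rests largely on Npy and Sst and does not stand for the whole list. Under saline 3 of 28 tested genes passed as higher and 8 as lower, beside 16.7% of all genes called. Under morphine 1 passed as higher and 4 as lower, beside 7.69%. The median log2 fold change of the list was -0.32 under saline and -0.36 under morphine, beside medians of 0.02 and -0.005 over all genes. Its defining markers did not move together: under saline Gad2 fell by 0.63 on the log2 scale (SE 0.204, edgeR adjusted p = 0.0360), Slc32a1 rose by 1.10 (SE 0.216, edgeR adjusted p = 0.00271) and Gad1 was at -0.19 (SE 0.160, edgeR adjusted p = 0.417), and none of them was at 0 in any mouse. The largest falls were in neuropeptide genes, with Npy at -1.81 (SE 0.165, edgeR adjusted p = 4.55e-05), Cort at -1.40 (SE 0.240, edgeR adjusted p = 0.00116) and Sst at -1.14 (SE 0.175, edgeR adjusted p = 6.09e-04), while Pvalb, which marks fast-spiking interneurons, rose by 0.68 (SE 0.189, edgeR adjusted p = 0.0174). Pnoc and the summed markers had a Pearson's r of 0.53 and a Spearman's rho of 0.56 over the 16 mice. Other sums gave values of similar size: r was 0.44 and rho 0.46 with the striatal sum, and -0.44 and -0.51 with the microglial sum. The part of the interneuron or other markers in the Pnoc difference was not tested.

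**Figure D5:**
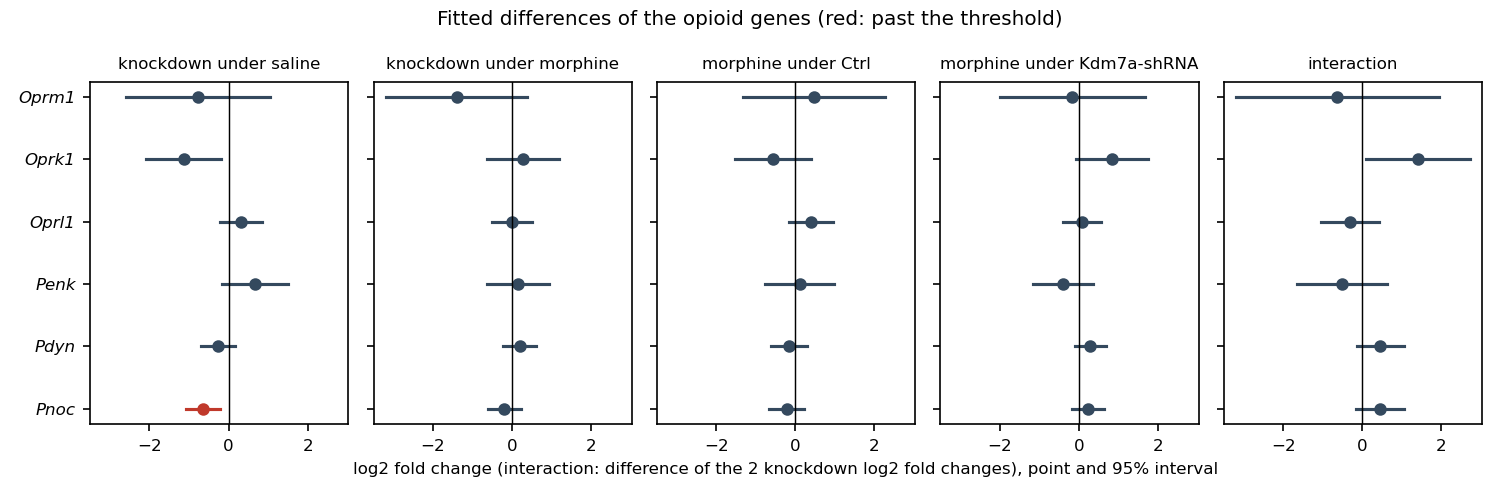
Fitted log2 fold changes (x axis, the same scale in every panel) of the 6 tested opioid genes in the 4 pairwise comparisons and in the interaction, as points with 95% intervals from the edgeR fit. Pnoc in knockdown under saline, drawn in red at -0.65, is the value past the threshold, and the intervals of Oprm1 are the widest, from -3.18 to 0.38 for knockdown under morphine.

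The cutting and trimming of the precursors was described by 8 genes, all of which were tested, and 4 of them passed under saline beside 16.7% of all genes. Under saline, knockdown mice were higher for Cpe, the carboxypeptidase that removes the basic residues left after cutting (log2 fold change 0.72, SE 0.140, edgeR adjusted p = 0.00263), Ctsl, a cathepsin that can cleave proenkephalin (1.46, SE 0.330, edgeR adjusted p = 0.00598), and Pcsk1n, an inhibitor of the convertase Pcsk1 (1.04, SE 0.269, edgeR adjusted p = 0.0129), and lower for the convertase Pcsk5 (-0.88, SE 0.291, edgeR adjusted p = 0.0412). The other 4, among them the main neuropeptide convertases Pcsk1 and Pcsk2, did not pass. The median of the list was -0.27, since 5 of the 8 genes were fitted lower. Under morphine only Ctsl passed (1.13, SE 0.305, edgeR adjusted p = 0.0276). Ctsl is also a lysosomal enzyme of microglia, whose markers moved in the same comparisons with the values given above, and their part in the Ctsl difference was not tested.

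Among 8 genes of peptidases that degrade opioid peptides, such as the neprilysin gene Mme, none passed under saline or under morphine alone by edgeR. The shares of all genes that passed there were 16.7% and 7.69%. Ace, the angiotensin-converting enzyme gene, passed in the averaged knockdown comparison (0.68, SE 0.183, edgeR adjusted p = 0.0101). This 1 call in 8 is no larger a share than the 17.6% of all genes, assembled loci included, that passed there.

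Of 33 tested genes that carry or end opioid receptor signals, 3 passed under saline and 3 others under morphine, beside 16.7% and 7.69% of all genes. The list thus held no larger share of calls under saline than the whole table. Under morphine its share was near that of the whole table, assembled loci included. Among known genes only, a smaller share passed under morphine (446 genes passed, and 14162 known genes were in the main test). Under saline Arrb2, the arrestin that binds phosphorylated mu receptors, rose by 1.05 on the log2 scale (SE 0.248, edgeR adjusted p = 0.00784) and the inhibitory G protein gene Gnai2 by 0.76 (SE 0.215, edgeR adjusted p = 0.0200), whereas Rgs17, which speeds the return of G proteins to rest, fell by 0.79 (SE 0.257, edgeR adjusted p = 0.0385). Under morphine the potassium channel gene Kcnj9 fell by 0.65 (SE 0.175, edgeR adjusted p = 0.0280) and the presynaptic calcium channel gene Cacna1b by 0.77 (SE 0.189, edgeR adjusted p = 0.0189), and Wls, whose protein binds the mu receptor and exports Wnt proteins, rose by 0.93 (SE 0.186, edgeR adjusted p = 0.00723). The medians of the list were 0.03 under saline and -0.20 under morphine. In the averaged comparison Arrb2 (0.62), Gnai2 (0.64) and Wls (0.70) passed, each with an edgeR adjusted p of 0.0109 or less. These 3 of 33 are a smaller share than the 17.6% of all genes that passed there. Arrb2 and Gnai2 are abundant in microglia as well, and the part of the microglial markers in them was not tested.

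Of 5 further opioid-related genes, Ogfr, the opioid growth factor receptor, which is not related to the opioid receptors in sequence, passed under saline (0.71, SE 0.237, edgeR adjusted p = 0.0413). This was 1 call in 5, beside 16.7% of all genes, assembled loci included. Pomc, the precursor of beta-endorphin, was read at 18 to 66 counts per mouse and did not pass (0.58 for knockdown under saline, SE 0.268, edgeR adjusted p = 0.135). No gene of the 4 lists passed for morphine under either virus or in the interaction by edgeR.

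Levels of the opioid genes were compared with each other across mice. Over the 15 pairs of tested members, Pearson's r of the log2 levels across 16 mice ran from -0.35 for Oprk1 with Penk to 0.44 for Oprl1 with Pdyn. For deviations from the group means the highest values were 0.62 for Penk with Pnoc, 0.54 for Oprl1 with Pdyn and 0.41 for Oprm1 with Penk. The ligand and receptor Pnoc and Oprl1 had an r of -0.33, Pdyn and Oprk1 of 0.11, and Penk and Oprm1 of 0.16. The genes whose levels followed each tested member most closely are named here as the 3 with the highest r among 14443 tested genes with a symbol. For Oprl1 they were Slc25a44, Napb and Hdgfl3 (r = 0.91, 0.90 and 0.89), and these stayed between 0.90 and 0.91 for deviations from the group means. For Penk they were Six3, Lrrc10b and Cdca7 (r = 0.82, 0.82 and 0.78), of which Six3 and Lrrc10b are in the striatal list. Pnoc was followed by Mphosph9, Xrcc5 and Sap18 (r = 0.90, 0.86 and 0.86), with values of 0.80, 0.64 and 0.68 for the deviations from the group means. Pdyn was followed by Mapt, Kcnd2 and Tppp (r = 0.83, 0.82 and 0.82), Oprm1 by Zswim4, Kcnh6 and Msh3 (r = 0.84, 0.83 and 0.82) and Oprk1 by Cebpz, Ano3 and Eif2s3x (r = 0.80, 0.79 and 0.79). Spearman's rho of these 18 pairs was 0.61 to 0.90. Such values are the largest of many and describe these 16 libraries only.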

How the data were processed

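The deposited table gives, for each gene and mouse, the number of reads counted by the authors and the same count as CPM, which the authors made from the column total (largest difference from that calculation 4.99e-06). Per the study's methods, full-length Nanopore cDNA-PCR reads were filtered on quality and length, cleared of ribosomal reads, placed on mm10 with minimap2 and clustered before counting. The submitters' processing notes name edgeR 3.8.6. The analysis here ran edgeR 4.0.16 (with limma 3.58.1) and, as an alternative, DESeq2 1.42.0, under R 4.3.3. The fit used filterByExpr, TMM factors and 1 coefficient per group in all 16 mice, and standard errors were taken from the F statistic. Normalized CPM are counts over TMM-scaled library sizes. The p-values measure the spread between mice.

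The 7 opioid genes, the gene and marker lists and the tests were chosen with earlier results of these data known. Other named genes were those of a list that passed, the 3 closest genes of each member over log2 CPM with a prior count of 2, and Kdm7a. Gene positions and coding sequences are from GENCODE vM21, read in Python. Alternatives were RLE factors, library size only, no filter, at least 10 counts in every mouse, DESeq2, a replicate block, the adjusted p-value alone, the compared groups alone and each mouse left out. Chosen after seeing the data were known genes only, and leaving out the 2 mice with the highest striatal marker sum. In simulated data the test recovered 50% of 200 genes changed 2-fold in knockdown under saline among 18826, with 6 unchanged genes called. Also, 1 gene of a marker list is not reported here by name.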

Additional observations from a re-analysis of the deposited data

Results flagged for a closer look

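Among 21 tests of a member in a group of 4 or 5 mice, 4 had a mouse whose distance from its nearest neighbour exceeded Dixon's 95% critical value, and chance alone gives about 1 in 20 such cases. Oprm1 was at 4.61 normalized CPM in replicate 2 of Kdm7a-shRNA + Saline, where the next mouse was at 0.787, and at 3.597 in replicate 2 of Kdm7a-shRNA + Morphine, where the next was at 0.430. Pdyn was at 7.65 normalized CPM in replicate 3 of Kdm7a-shRNA + Morphine, below 14.9 in the next mouse. Pnoc was at 4.60 normalized CPM in replicate 1 of Kdm7a-shRNA + Morphine, above 3.89 in the next mouse. These 2 values rest on 30 and 29 reads, and Pnoc varied within groups no more than counting error, so this gap does not mark an unusual mouse. The 2 high Oprm1 mice both carried the Kdm7a-shRNA virus, and each had the highest striatal marker sum of its group, at 326.6 and 270.5 normalized CPM.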

How the results depend on the processing

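The number of opioid genes that passed was the same for the 4 pairwise comparisons, the 2 averages and the interaction under RLE factors, library size only, no filter, at least 10 counts in every mouse, DESeq2 and known genes only, and for the pairwise comparisons when the compared groups were fitted alone. For knockdown under saline it was 0 with a replicate block and 0 without the 2 mice with the highest striatal marker sum, and 0 to 2 when each mouse was left out. For the averaged knockdown it was 1 (Pnoc) by the adjusted p-value alone, 1 (Oprm1) without those 2 mice, and 0 to 1 with each mouse left out. Over all genes, knockdown under saline gave 3151 calls, and 1852 with at least 10 counts in every mouse, 1419 with known genes only and 1669 without the 2 mice. For knockdown under morphine the counts were 1448, and 697, 446 and 685 for the first 2 of these and for the compared groups alone. For the averaged knockdown they were 3316, and 1525 and 1456 for the same first 2, and 5190 by the adjusted p-value alone. DESeq2 called 185 genes for morphine under Ctrl, 20 under Kdm7a-shRNA, 7 for morphine averaged and 217 for the interaction, against 0, 1, 0 and 16 by edgeR. The interaction count was 34 with no filter, 6 with a replicate block and 2 without the 2 mice, and that for morphine under Kdm7a-shRNA was 0 to 2 under the other edgeR settings. With each mouse left out, the interaction count was 0 to 266 and that for morphine under Kdm7a-shRNA 0 to 5. Knockdown under saline then gave 1424 (without replicate 3 of Ctrl + Saline) to 3730 calls, knockdown under morphine 568 (without replicate 3 of Kdm7a-shRNA + Morphine) to 2066 and the averaged knockdown 2753 to 3738. Without replicate 1 of Ctrl + Saline, morphine under Ctrl gave 230 calls and morphine averaged 27, so the shares of all genes given beside the opioid genes rest in part on single mice. With fewer genes or mice, lower counts follow in part from the construction. With known genes only, the 3 knockdown counts fell by more than the number of genes, since 14162 of the 18826 genes of the main test were known genes. The cause of this and of the other changes was not tested.

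Same-numbered mice of different groups are different animals, so the numbers were not taken as pairs. Their deviations from the group means had correlations of -0.10 to 0.39 (median 0.014), over 0.1 in 6 of 21 pairs. Between mice of different number and group the correlations were -0.47 to 0.32 (median -0.007), over 0.1 in 13 of 74 pairs. Of the 16 mice, 8 correlated best with a mouse of their own number. Whether the numbers carry a shared effect was not tested. With the replicate block the Pnoc difference under saline was -0.66 (edgeR adjusted p = 0.0560).

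Log2 fold changes that were past no threshold turned sign as follows. Without the 2 mice, morphine under Kdm7a-shRNA was 1.26 for Oprm1, -0.16 for Oprl1 and 0.47 for Penk. Without them, Penk was -0.21 for knockdown under saline, -0.0288 for the averaged knockdown and 0.29 for morphine averaged, and the interaction was 0.80 for Oprm1 and 0.36 for Penk. With the block, Oprl1 was -0.0217 for morphine under Kdm7a-shRNA and Penk 0.0415 for morphine averaged. For knockdown under morphine, Oprl1 was 0.013 with RLE factors, 0.00738 with no filter and 0.015 with DESeq2. For morphine averaged, Pnoc was -0.00432 with RLE factors, -0.00616 with at least 10 counts, -0.00519 with DESeq2 and -0.011 with known genes only. With each mouse left out, the ranges were for interaction Oprm1 -2.46 to 0.85, for knockdown averaged Pdyn -0.088 to 0.073, for knockdown under morphine Oprl1 -0.16 to 0.14, for morphine averaged Oprk1 -0.0199 to 0.27, Oprm1 -0.77 to 0.89, Pnoc -0.075 to 0.064, for morphine under Ctrl Penk -0.14 to 0.27, for morphine under Kdm7a-shRNA Oprl1 -0.073 to 0.25, Oprm1 -1.996 to 1.314. The cause of these sign changes was not tested, and the Penk values without the 2 mice for knockdown under saline and for morphine under Kdm7a-shRNA lay outside the 95% intervals of the fit with all mice.

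Depth limits Oprd1, Oprk1 and Oprm1. With at least 10 counts in every mouse these 3 could not be tested, Oprd1 was tested with no filter and without replicate 1 or replicate 3 of Ctrl + Saline, and compared groups alone left 4 to 6 opioid genes. An adjusted p that DESeq2 did not give was left out.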
